A study of Mus musculus with 6 samples.

Results

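The 2-oxoglutarate-dependent dioxygenases, enzymes that use iron, oxygen and 2-oxoglutarate (α-ketoglutarate) to hydroxylate or demethylate their substrates, were followed as a group of 50 named mouse genes in CD8+ T cells exposed to itaconate. The group was set by gene name: the TET DNA demethylases, the JmjC-domain proteins, the HIF prolyl and asparaginyl hydroxylases, the collagen and EGF-domain hydroxylases, the AlkB family, the OGFOD family and 2 metabolic hydroxylases. Of the 50 names, 49 had a row among the 55487 genes of the deposited tables, and 1, Tmlhe, was not matched and is not analysed here. All 49 were among the 12350 genes that passed the filter on low counts.

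The samples were 3 RNA-seq libraries of CD8+ T cells of C57BL/6 mice treated with 5 mM itaconate for 48 h, and 3 of the same cells treated with NaCl as a control for 48 h. The groups share their strain and RNA type, and the labels name no genetic change, activation step or age of the mice. Nor do they give the origin of the replicates as separate animals or dishes. The p-values therefore rest on differences among libraries of a group, which may be technical.

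Dioxygenases of this family couple the oxidation of their substrate to the breakdown of 2-oxoglutarate to succinate and carbon dioxide. Succinate, fumarate and other dicarboxylic acids that resemble 2-oxoglutarate can occupy the same pocket, and itaconate, which activated macrophages make from cis-aconitate, is such an acid. In T cells the family sets oxygen sensing through HIF, the removal of methyl groups from DNA and histones, and the repair or demethylation of RNA and DNA bases. RNA levels, which are what was measured here, say nothing about the activity of the enzymes.

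Depth ranged from 18280217 to 23609543 expected counts in itaconate libraries and from 20469874 to 31643408 in control libraries. The members took 41155 to 53006 of those counts in itaconate libraries and 53596 to 79043 in control libraries. The labelled cell type was matched by its markers: Cd8a averaged 315 TPM in itaconate and 249 TPM in control libraries, whereas Cd4 averaged 1.73 TPM in itaconate and 1.53 TPM in control libraries. Of 8 fibroblast markers, 7 stayed under 1 TPM in every library, and the eighth, Thy1, is also made by T cells. Of 10 macrophage and dendritic cell markers, 8 stayed under 1 TPM in every library, with summed levels of 3.42 to 4.60 TPM in itaconate and 1.92 to 3.26 TPM in control libraries. The CD8 T-cell list summed to 6831 to 7087 TPM in itaconate and 6333 to 6610 TPM in control libraries, and the CD4 T-cell list, mostly Ctla4 and Icos, to 282 to 302 TPM in itaconate and 373 to 405 TPM in control libraries. Within that list Ctla4 fell (log2 fold change -0.44, adjusted p = 0.00295), whereas Foxp3 rose, at 4.68 ± 0.97 TPM in itaconate and 0.967 ± 0.53 TPM in control libraries (log2 fold change 2.72, adjusted p = 1.1e-05). B-cell markers summed to 10.5 to 19.7 TPM in itaconate and 11.8 to 16.0 TPM in control libraries. Summed neutrophil markers lay between 0.23 and 19.4 TPM in itaconate and between 0 and 6.96 TPM in control libraries, with Ly6g at 0 counts in all 6. Erythroid markers summed to 0.51 to 12.6 TPM in itaconate and 2.45 to 3.90 TPM in control libraries. NK-cell markers, mostly Eomes, summed to 40.8 to 54.7 TPM in itaconate and 39.2 to 42.9 TPM in control libraries, and endothelial markers, mostly Pecam1 with Cdh5 at 0 counts, to 8.62 to 9.22 TPM in itaconate and 10.6 to 11.95 TPM in control libraries. The CD8, CD4, macrophage and endothelial sums did not overlap between groups, and their part in the results was not tested.

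At an adjusted p under 0.05 in edgeR's quasi-likelihood test, 14 of the 49 genes fell and 1, Egln2, rose, while 34 did not pass the test. Among all 12350 genes, 12% were called, 6.68% higher and 5.36% lower, so the share of members that fell (28.6%) was above the background and the share that rose was not. The members were chosen with earlier results of these data known, so these shares are a description only. The median log2 fold change of the members was -0.09, against 0.01 for all tested genes, and 37 of the 49 fitted values were negative. In 20 members the 6 libraries separated without overlap between groups, 19 of them lower in itaconate, where 31.2% of all genes separated and 14.4% did so downwards. Averaged over the 49 members, the log2 level relative to the control mean was -0.14, -0.16 and -0.17 in itaconate replicates 1, 2 and 3, and between -0.02 and 0.02 in control libraries. The count of fallers depended on the libraries used: 8 fell and 0 rose without control replicate 2, when 2.5% of all genes fell. Fewer cells of a type and less RNA per cell cannot be told apart in such bulk samples.

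**Figure D1:**
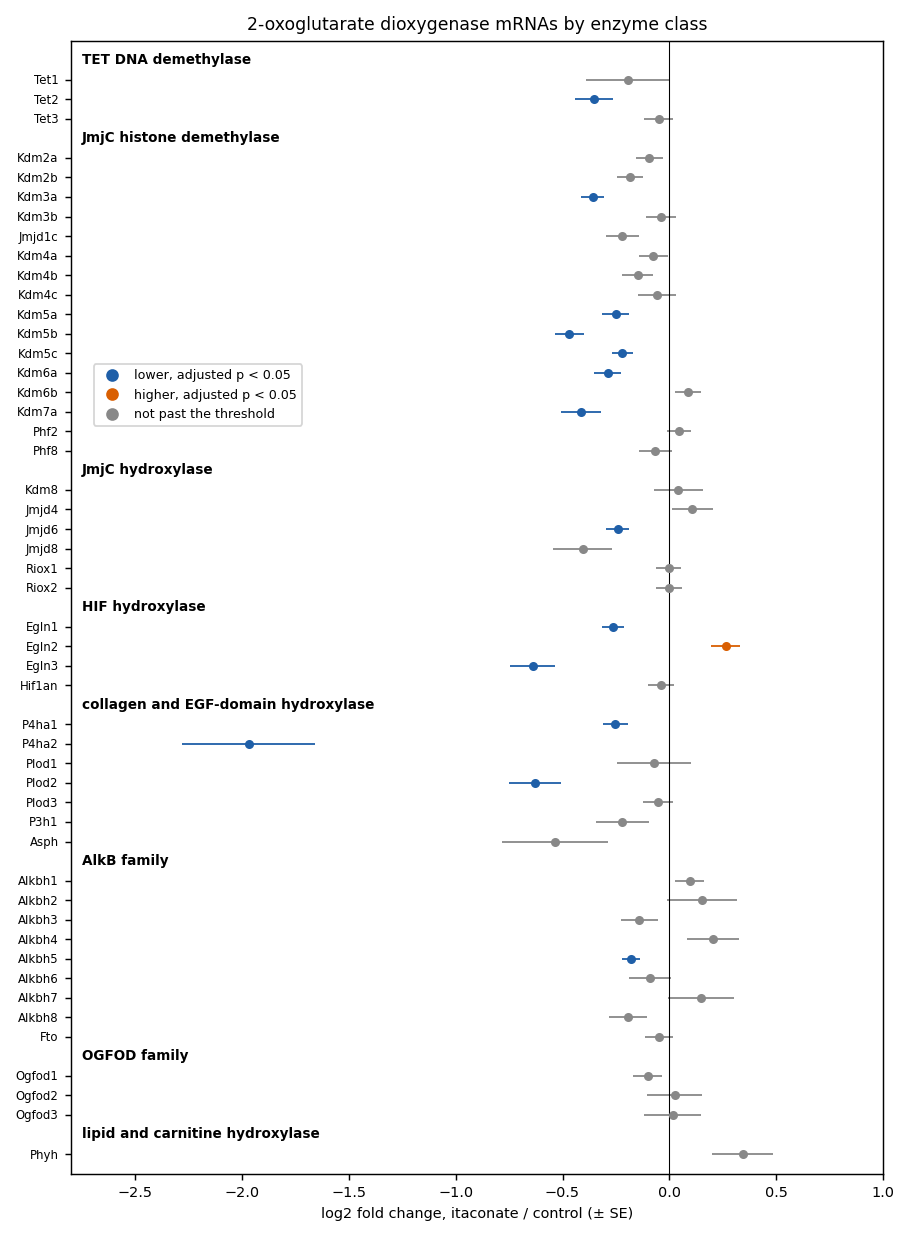
Log2 fold change of each of the 49 dioxygenase genes, itaconate over control, grouped by enzyme class, with standard errors from the edgeR fit to 3 libraries per group. The 14 genes that fell are blue, the 1 that rose (Egln2) is orange, and P4ha2 stands farthest from 0 at -1.97.

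Levels of the members spanned more than 2 orders of magnitude on the length-normalised TPM scale. Jmjd6 was highest, with 80.9 TPM over the 6 libraries, followed by Egln3 at 66.9 TPM, Riox2 at 58.9 TPM, Kdm5c at 49.8 TPM, Alkbh5 at 47.1 TPM and Egln1 at 41.8 TPM. The lowest were Tet1 at 0.377 TPM, Asph at 1.01 TPM, Plod1 at 1.94 TPM and P4ha2 at 1.98 TPM. Transcripts that fell thus stood at both ends of the order, from Jmjd6 and Egln3 to P4ha2.

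**Figure D2:**
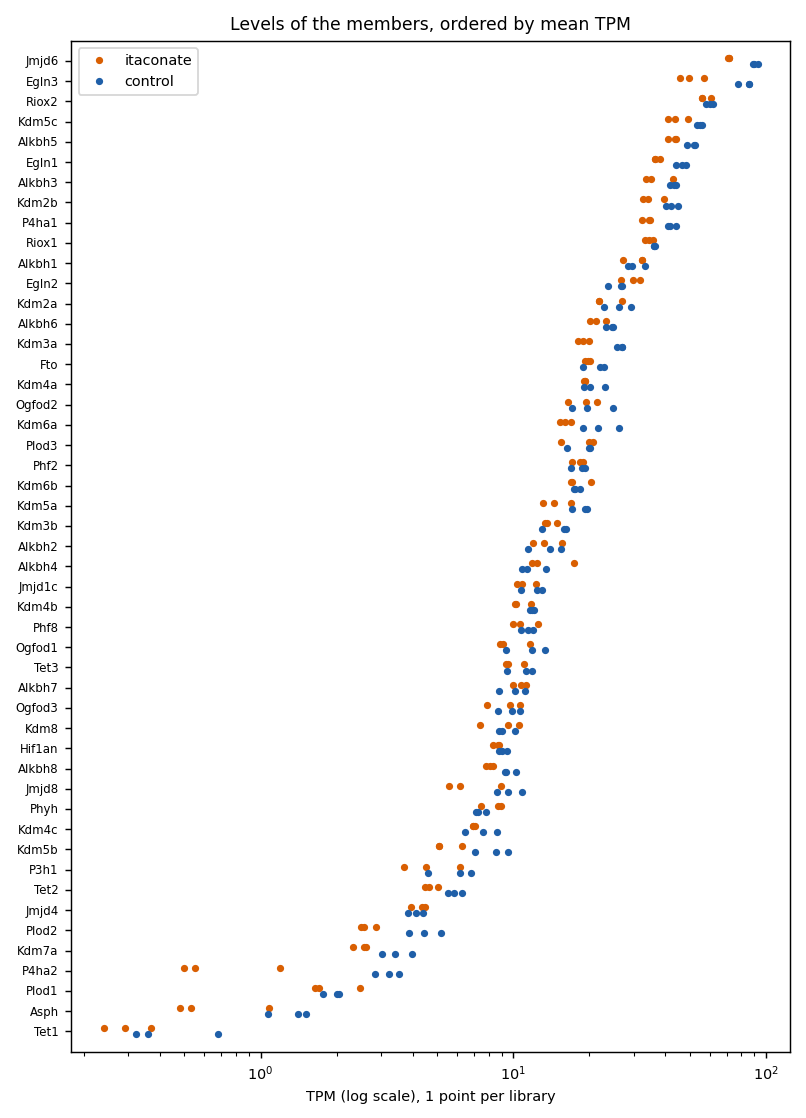
TPM of the 49 dioxygenase genes on a logarithmic axis, 1 point per library, ordered by the mean of the 6 libraries. The order runs from Jmjd6, at 80.9 TPM, to Tet1, at 0.377 TPM.

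The HIF hydroxylases did not move together. Egln1, Egln2 and Egln3 encode the prolyl hydroxylases PHD2, PHD1 and PHD3, which mark HIF-α subunits for capture by the VHL ubiquitin ligase when oxygen is present, and Hif1an encodes FIH, which hydroxylates an asparagine of HIF-α and blocks its coactivator contact. Egln1 and Egln3 fell, Egln2 rose and Hif1an did not pass the test.

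Egln3 (ENSMUSG00000035105, GRCm38 chromosome 12, 54178981 to 54203860, minus strand) had 89.9, 119 and 101 CPM in itaconate libraries, against 147, 164 and 172 CPM in control libraries. Every itaconate library lay below every control library, and the difference was a 1.56-fold decrease (log2 fold change -0.64 ± 0.10, SE, adjusted p = 0.00759). Egln1 (ENSMUSG00000031987, chromosome 8, 124908587 to 124949324, minus strand), the main oxygen-sensing isoform in most cells, had 99.1, 105 and 108 CPM in itaconate libraries, against 128, 124 and 123 CPM in control libraries. The groups did not overlap here either, with a 1.20-fold decrease (log2 fold change -0.26 ± 0.051, adjusted p = 0.00431).

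Egln2 (ENSMUSG00000058709, chromosome 7, 27158658 to 27166802, minus strand) ran the other way, with 47.6, 42.1 and 46.0 CPM in itaconate libraries, against 37.6, 39.4 and 36.2 CPM in control libraries. In CPM all itaconate libraries were above all control libraries, and the gene rose 1.20-fold (log2 fold change 0.26 ± 0.068, adjusted p = 0.0219). In TPM the groups overlapped, with 31.83, 26.8 and 29.9 in itaconate libraries and 27.03, 26.81 and 23.85 in control libraries. Egln2 was the least stable of the called members, being called in 8 of 17 alternative settings. The call was lost on leaving out itaconate replicate 1 or 3 or control replicate 2 or 3, with an adjusted p of up to 0.0848. It was also lost in edgeR with a correction for effective length (adjusted p = 0.105) or for length and GC trends (adjusted p = 0.142). The gene shares 11 exon bases with Cyp2t4 on the opposite strand. Hif1an had 42.2, 43.1 and 40.9 CPM in itaconate libraries and 42.3, 44.6 and 42.9 CPM in control libraries, with overlap (log2 fold change -0.04 ± 0.061, adjusted p = 0.737).

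The shares of the 3 EGLN transcripts could not be shown to differ with this number of libraries, and are given as values. Egln3 made up 43.3% ± 3.8 of their summed TPM in itaconate and 53.4% ± 2.6 in control libraries (SD, n = 3 each), and Egln2 made up 25.2% ± 2.8 in itaconate and 16.7% ± 1.1 in control libraries. Neither share overlapped between groups. An exact two-sided permutation test gave p = 0.1 for each, the smallest value that 3 against 3 libraries can give, and 0.18 after adjustment over the 9 ratios computed. Egln1 stood at 31.6% ± 1.1 of the sum in itaconate and 30.0% ± 1.6 in control libraries (exact permutation p = 0.2, 0.3 adjusted). On the log2 scale, the CPM of Egln3 relative to Egln2 was 0.92, 1.496 and 1.14 in itaconate libraries and 1.96, 2.06 and 2.25 in control libraries.

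Of the 14 tested genes of the HIF pathway itself (the HIF subunits, their coactivators and the VHL ligase), 0 rose and 2 fell, with a median log2 fold change of -0.07. Over all tested genes 6.68% rose and 5.36% fell. Vhl, the substrate receptor that binds prolyl-hydroxylated HIF-α, averaged 17.7 ± 1.8 CPM in itaconate and 24.8 ± 1.6 CPM in control libraries (log2 fold change -0.48 ± 0.094, adjusted p = 0.00431). Ep300, a coactivator whose contact with HIF-α is blocked by FIH, averaged 65.1 ± 9.0 CPM in itaconate and 81.5 ± 4.7 CPM in control libraries (log2 fold change -0.32 ± 0.088, adjusted p = 0.0379). Hif1a itself averaged 315 ± 13 CPM in itaconate and 328 ± 8.2 CPM in control libraries and did not pass (adjusted p = 0.468). Epas1, which encodes HIF-2α, was barely present, at 0.411 ± 0.079 CPM in itaconate and 0.650 ± 0.18 CPM in control libraries (adjusted p = 0.389).

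The collagen and EGF-domain hydroxylases include P4ha2, the member with the largest decrease in the fit. All 7 had negative fitted values, with a median log2 fold change of -0.25. Of the 7, 3 fell (P4ha2, Plod2 and P4ha1), where 5.36% of all tested genes fell. The mean log2 level of the 7 relative to control was -0.52, -0.42 and -0.48 in itaconate replicates 1, 2 and 3, and between -0.04 and 0.02 in control libraries. Without P4ha2, the mean of the other 6 was -0.28, -0.32 and -0.22 in itaconate replicates 1, 2 and 3, and between -0.07 and 0.06 in control libraries.

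P4ha2 (ENSMUSG00000018906, chromosome 11, 54100095 to 54131665, plus strand) encodes a catalytic α-subunit of collagen prolyl 4-hydroxylase, the endoplasmic reticulum enzyme that stabilises the collagen triple helix. It had 0.891, 2.22 and 0.858 CPM in itaconate libraries, against 4.31, 5.61 and 5.33 CPM in control libraries, from 18, 40 and 20 counts in itaconate and 116, 116 and 168 counts in control libraries. Itaconate replicate 2 held more than the other itaconate libraries and still lay below every control library. The decrease was 3.92-fold (log2 fold change -1.97 ± 0.31, adjusted p = 0.00169), at a level of 0.747 ± 0.38 TPM in itaconate and 3.21 ± 0.35 TPM in control libraries.

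Its paralogue P4ha1 (ENSMUSG00000019916, chromosome 10, 59323296 to 59373304, plus strand), the more abundant α-subunit, had 72.8, 80.3 and 75.7 CPM in itaconate libraries, against 94.3, 86.2 and 91.9 CPM in control libraries. The groups were apart by less than for P4ha2, a 1.19-fold decrease (log2 fold change -0.25 ± 0.058, adjusted p = 0.0118) whose adjusted p was 0.0539 without itaconate replicate 3. Plod2 (ENSMUSG00000032374, chromosome 9, 92542223 to 92608428, plus strand), a lysyl hydroxylase that directs collagen cross-linking, had 7.82, 7.21 and 7.25 CPM in itaconate libraries, against 13.0, 10.9 and 10.6 CPM in control libraries. It fell 1.55-fold with no overlap (log2 fold change -0.63 ± 0.12, adjusted p = 0.00427). Plod2 shares 346 exon bases with the predicted gene Gm38391 on the opposite strand, and the strand setting of the counting is not given, so reads of such pairs cannot be told apart.

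The remaining 4 did not pass the test. The lysyl hydroxylase genes Plod1 and Plod3 had log2 fold changes of -0.07 ± 0.17 and -0.05 ± 0.070, and the prolyl 3-hydroxylase gene P3h1 had -0.22 ± 0.12. Asph, which encodes the aspartyl hydroxylase of EGF-like domains, had 1.78, 1.66 and 2.75 CPM in itaconate and 3.08, 2.61 and 3.33 CPM in control libraries, overlapping through itaconate replicate 3 (log2 fold change -0.54 ± 0.25, adjusted p = 0.186). The collagen genes that these enzymes serve were mostly too low to test: 5 of 16 listed genes of collagen chains and processing passed the filter, 2 higher and 1 lower. P4hb, protein disulfide isomerase and the β-subunit of collagen prolyl 4-hydroxylase, averaged 407 ± 1.8 CPM in itaconate and 524 ± 32 CPM in control libraries and fell (log2 fold change -0.37 ± 0.050, adjusted p = 0.000407). Crtap, the partner of P3h1 in the prolyl 3-hydroxylation complex, rose to 24.1 ± 1.5 CPM in itaconate libraries, against 17.4 ± 0.17 CPM in control libraries (adjusted p = 0.00228). Col15a1, a basement-membrane collagen chain, rose at a low level, with 2.67 ± 0.59 CPM in itaconate and 1.09 ± 0.44 CPM in control libraries (adjusted p = 0.0187).

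**Figure D3:**
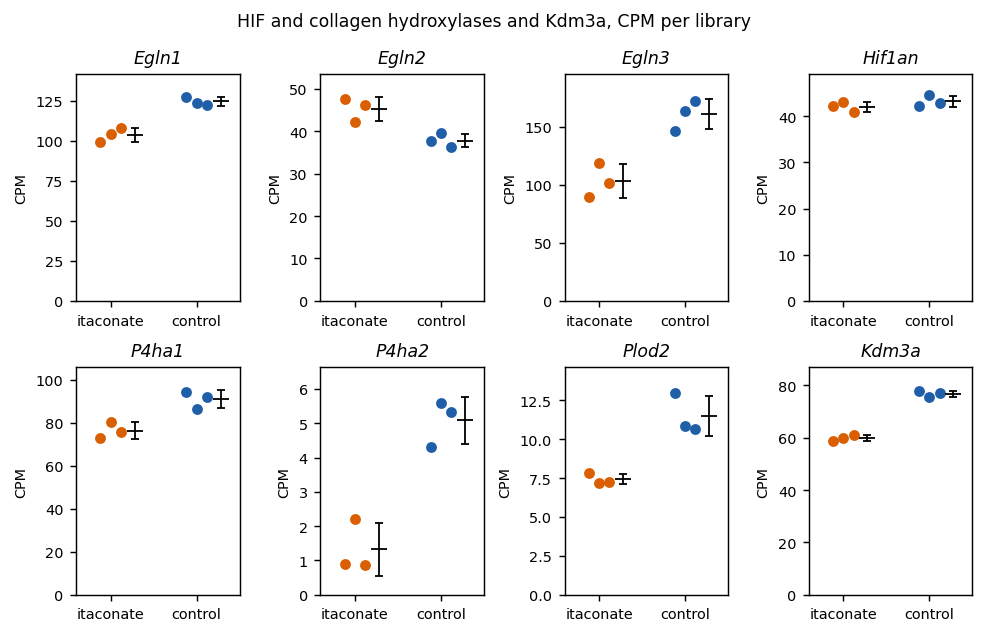
CPM per library of the 4 HIF hydroxylase genes, of P4ha1, P4ha2 and Plod2, and of Kdm3a, itaconate (orange) left of control (blue), with the mean and SD of 3 libraries as black marks and each axis starting at 0. Egln2 is the panel in which itaconate libraries are higher, and the Hif1an points of both groups overlap.

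Several members are known as transcriptional targets of HIF-1. From general knowledge 10 of the 49 were listed as such. The list was written with earlier results of these data known, so its share of fallers is a description only. Of the 10, 7 fell: Egln1, Egln3, P4ha1, P4ha2, Plod2, Kdm3a and Kdm5b. The other 3, Plod1, Kdm4b and Kdm4c, did not pass the test (log2 fold changes -0.07, -0.15 and -0.06). The median of the 10 was -0.31. Of the 39 members outside the list, 7 fell and 1 rose, with a median of -0.07. On leaving out each library in turn, 7 members were called every time: Jmjd6 and all of the listed 7 except P4ha1.

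The sequence just upstream of the members is shown because those that fell include some of the listed HIF-1 targets. The binding element of HIF has the core ACGTG or GCGTG. Whether HIF has a part in the falls was not tested. RefSeq start sites (GRCm38.p6) gave a window of 300 bases, 250 before and 50 after the start, for 41 of the 49 members, and the first window listed for a gene was used. ACGTG, on either strand (read as CACGT on the other strand, so that CACGTG matches on both), occurred in 9 of the 12 windows of genes that fell (75%), in 7 of the 29 other windows (24.1%) and in 19.7% of the first windows of all 27025 genes. Either of the cores, with GCGTG also searched on both strands, occurred in 11 of the 12, in 16 of the 29 and in 43.8% of all genes. Windows of genes that fell also held more CG dinucleotides, with a median of 25, against 19 in the other members and 7 in all genes, and the part of this CG content in the motif counts was not tested. Egln2, which rose, held 3 ACGTG matches in its first window, with CACGTG counted on both strands. No member that fell held more: Kdm6a held 3 and P4ha2 held 2. Windows after the first were not counted. Those of Kdm4c and P3h1, which did not fall, hold ACGTG, and those of Kdm3a, which fell, do not. A match is a description of the letters only.

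The 250 bases before the RefSeq start of P4ha2, the gene with the widest decrease (chr11:54100674-54100923, plus strand), and of Egln2, the gene that rose (chr7:27166803-27167052, minus strand), are given 5′ to 3′. Every ACGTG and every GCGTG of either strand that lies wholly within these bases is in capitals. Matches counted above that reach past the start are not marked: ACGTG at -4 to 1 and -3 to 2 in Egln2, and at 11 to 15 in P4ha2.
P4ha2: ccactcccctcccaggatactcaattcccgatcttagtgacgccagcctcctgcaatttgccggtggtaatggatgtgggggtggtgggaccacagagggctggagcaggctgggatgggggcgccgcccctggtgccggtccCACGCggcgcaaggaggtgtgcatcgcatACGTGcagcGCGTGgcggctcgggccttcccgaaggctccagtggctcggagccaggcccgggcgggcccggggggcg
Egln2: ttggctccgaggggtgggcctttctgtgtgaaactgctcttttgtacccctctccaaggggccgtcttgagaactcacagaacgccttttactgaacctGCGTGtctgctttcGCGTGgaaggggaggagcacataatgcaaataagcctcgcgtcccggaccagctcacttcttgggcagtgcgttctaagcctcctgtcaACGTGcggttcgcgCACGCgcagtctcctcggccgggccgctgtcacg

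Shorter stretches of 25 bases, with ACGTG in capitals, show the same core in 4 further genes that fell: Egln1 (chr8:124949308-124949332, minus strand), Egln3 (chr12:54204089-54204113, minus strand), P4ha1 (chr10:59323270-59323294, read on the minus strand, opposite to the gene) and Kdm5b (chr1:134559939-134559963, plus strand). Of the Egln1 stretch, 17 bases lie in an annotated exon.
Egln1: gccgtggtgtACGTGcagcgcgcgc
Egln3: tgcatctcagACGTGagatccaggt
P4ha1: agccctcgctACGTGcgctctgtca
Kdm5b: aaaatatatgACGTGattgatggat
Egln1 and P4ha2 share a run of 13 bases around the core, tACGTGcagcgcg, which was noticed on reading the windows. The run was picked because these 2 windows share it, so finding it in both was given in advance. Of the 32851 RefSeq promoter windows, searched on either strand, only these 2 held it, and nothing is drawn from that count.

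Among the JmjC histone demethylases, 6 of 16 fell and 0 rose, where 5.36% of all tested genes fell and 6.68% rose. Their median log2 fold change was -0.17, and 8 separated without overlap, all lower in itaconate, where 14.4% of all tested genes separated downwards. The genes that fell were Kdm3a, Kdm5a, Kdm5b, Kdm5c, Kdm6a and Kdm7a, which encode enzymes for different histone H3 methyl marks. As a class mean, the log2 level relative to control was -0.13, -0.20 and -0.18 in itaconate replicates 1, 2 and 3, and between -0.07 and 0.05 in control libraries.

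Kdm5a, Kdm5b and Kdm5c encode demethylases of the lysine methylated at active promoters, and all 3 genes of that family on the list fell. Kdm5b (ENSMUSG00000042207, chromosome 1, 134560171 to 134635285, plus strand) had 28.4, 26.7 and 29.1 CPM in itaconate libraries, against 39.6, 39.4 and 37.6 CPM in control libraries. The groups were far apart for their spread, a 1.38-fold decrease (log2 fold change -0.47 ± 0.068, adjusted p = 0.000603). Kdm5a had 67.2, 58.0 and 61.5 CPM in itaconate libraries, against 74.2, 75.5 and 72.7 CPM in control libraries, without overlap (log2 fold change -0.25 ± 0.062, adjusted p = 0.0172). Kdm5c, on the X chromosome, had 167, 162 and 162 CPM in itaconate libraries, against 201, 190 and 181 CPM in control libraries, also without overlap (log2 fold change -0.22 ± 0.050, adjusted p = 0.0110). Leaving out 1 library ended the call of Kdm5a (itaconate replicate 2 or 3 or control replicate 2, adjusted p up to 0.0844) and of Kdm5c (itaconate replicate 3 or control replicate 2, up to 0.0552). Kdm5a shares 251 exon bases with Ccdc77 on the opposite strand.

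Kdm3a (ENSMUSG00000053470, chromosome 6, 71588972 to 71632990, minus strand), a demethylase of a repressive histone H3 lysine, had 58.8, 59.9 and 61.1 CPM in itaconate libraries, against 78.0, 75.6 and 76.9 CPM in control libraries. The replicates lay close together in both groups, and the gene fell 1.28-fold (log2 fold change -0.36 ± 0.053, adjusted p = 0.000749). Its relatives Kdm3b and Jmjd1c did not pass (log2 fold changes -0.04 and -0.22, adjusted p = 0.777 and 0.0826). Kdm7a, a demethylase of repressive marks, had 19.2, 18.5 and 20.1 CPM in itaconate libraries, against 24.8, 29.3 and 23.2 CPM in control libraries, with control replicate 2 the highest (log2 fold change -0.41 ± 0.095, adjusted p = 0.0118). Without control replicate 2 or itaconate replicate 2 its adjusted p was above the threshold, up to 0.0655, and the gene shares 287 exon bases with an antisense transcript.

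Kdm6a and Kdm6b encode UTX and JMJD3, which remove the Polycomb mark placed by Ezh2, and gave unlike values. Kdm6a (ENSMUSG00000037369, X chromosome, 18162575 to 18279936, plus strand) had 47.2, 47.9 and 46.4 CPM in itaconate libraries, against 57.1, 62.0 and 54.0 CPM in control libraries. It fell without overlap (log2 fold change -0.29 ± 0.064, adjusted p = 0.00992), and its adjusted p was 0.0629 without control replicate 2. Kdm6b had 105, 90.004 and 91.5 CPM in itaconate libraries and 91.1, 88.3 and 89.5 CPM in control libraries, where itaconate replicate 1 was the highest and the groups overlapped (log2 fold change 0.09 ± 0.061, adjusted p = 0.390). The difference between the 2 genes was not tested.

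The other JmjC histone demethylase genes had log2 fold changes between -0.18 and 0.05 and did not pass. Kdm2b and Kdm4b separated without overlap, with adjusted p of 0.0604 and 0.198, and Kdm2a, Kdm4a, Kdm4c, Phf2 and Phf8 overlapped. The flavin-dependent histone demethylases and their partners, which do not use 2-oxoglutarate, gave 0 calls among 8 tested genes in edgeR's test and 0 in DESeq2, with 2 at an unadjusted p under 0.05 and a median log2 fold change of 0.04. Of 30 tested genes of histone lysine methyltransferase complexes, 3 rose and 2 fell (median -0.05), where 6.68% of all tested genes rose and 5.36% fell. Smyd3, a lysine methyltransferase, rose to 27.7 ± 2.2 CPM in itaconate libraries, against 18.9 ± 0.23 CPM in control libraries (adjusted p = 0.000731). Ehmt2, which encodes G9a, rose to 187 ± 5.2 CPM in itaconate libraries, against 162 ± 3.7 CPM in control libraries (adjusted p = 0.00960). Prdm1, the effector regulator BLIMP1, fell to 8.10 ± 1.4 CPM in itaconate libraries, against 13.5 ± 2.1 CPM in control libraries (adjusted p = 0.00511). Setdb2 fell to 16.6 ± 1.0 CPM in itaconate libraries, against 20.5 ± 0.85 CPM in control libraries (adjusted p = 0.0375). Ezh2 averaged 329 ± 3.7 CPM in itaconate and 340 ± 5.8 CPM in control libraries and did not pass (adjusted p = 0.560).

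Of the 6 JmjC hydroxylases, 1 fell, where 5.36% of all tested genes did. Jmjd6 (ENSMUSG00000056962, chromosome 11, 116837432 to 116843449, minus strand), a lysyl hydroxylase of splicing proteins and the highest of all members on the TPM scale, had 85.5, 86.7 and 85.5 CPM in itaconate libraries, against 99.9, 98.1 and 107 CPM in control libraries. The groups did not overlap (log2 fold change -0.24 ± 0.052, adjusted p = 0.00839). It shares 172 exon bases with Mettl23 on the opposite strand. Jmjd8 had 11.93, 8.27 and 9.01 CPM in itaconate libraries and 14.3, 12.4 and 11.97 CPM in control libraries, where the highest itaconate library lay just below the lowest control library, and missed the threshold (log2 fold change -0.41 ± 0.14, adjusted p = 0.0689). Its exons share 1084 bases with Stub1 on the opposite strand. Kdm8, Jmjd4 and the ribosomal oxygenase genes Riox1 and Riox2 had log2 fold changes of 0.04, 0.11, -0.0035 and -0.0021, and overlapped between groups.

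The TET enzymes oxidise the methyl group of 5-methylcytosine, the first step of active DNA demethylation. Tet2 (ENSMUSG00000040943, chromosome 3, 133463679 to 133545139, minus strand) had 23.6, 22.3 and 19.0 CPM in itaconate libraries, against 28.5, 26.8 and 27.3 CPM in control libraries. It fell 1.28-fold without overlap (log2 fold change -0.35 ± 0.088, adjusted p = 0.0188), but the call was lost without itaconate replicate 3, control replicate 1 or control replicate 2, with an adjusted p of up to 0.0960. It shares 43 exon bases with the antisense gene Gm42567. Tet3, the most abundant of the 3 on the TPM scale, had 91.7, 82.8 and 81.8 CPM in itaconate libraries and 90.6, 94.4 and 80.8 CPM in control libraries, with overlap (log2 fold change -0.05 ± 0.067, adjusted p = 0.691). Tet1 was low, with 3.32, 2.83 and 4.25 CPM in itaconate and 3.97, 4.45 and 3.59 CPM in control libraries (log2 fold change -0.19 ± 0.20, adjusted p = 0.596).

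Tet3 made up 66.4% ± 3.1 of the summed TET TPM in itaconate and 63.1% ± 3.6 in control libraries, and Tet2 made up 31.6% ± 3.1 in itaconate and 34.3% ± 4.4 in control libraries (SD, n = 3 each, exact permutation p = 0.5 for each, 0.5 adjusted). Over all tested genes 6.68% rose and 5.36% fell. Of 11 tested genes for DNA methylation and the repair of oxidised bases, 0 rose and 2 fell (median log2 fold change -0.04). These were Gadd45b, at 37.2 ± 3.9 CPM in itaconate and 50.1 ± 2.4 CPM in control libraries (adjusted p = 0.00292), and Gadd45a, at 1.61 ± 0.29 CPM in itaconate and 2.98 ± 0.33 CPM in control libraries (adjusted p = 0.0272). Both encode stress-induced proteins linked to demethylation. The methyltransferases Dnmt1 and Dnmt3a had log2 fold changes of 0.04 and -0.06 (adjusted p = 0.700 and 0.528).

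Among the 9 AlkB-family genes, 1 fell and 0 rose, where 5.36% of all tested genes fell and 6.68% rose. Their median log2 fold change was -0.05. Alkbh5 (ENSMUSG00000042650, chromosome 11, 60536381 to 60558512, plus strand), which demethylates N6-methyladenosine in RNA, had 195, 193 and 204 CPM in itaconate libraries, against 224, 225 and 222 CPM in control libraries. The groups did not overlap, and the decrease was the smallest of the 14 (log2 fold change -0.18 ± 0.044, adjusted p = 0.0175). It was lost without itaconate replicate 1 or 2 or control replicate 2, with an adjusted p of up to 0.0736. Fto, the other RNA adenosine demethylase, had 51.7, 56.6 and 54.7 CPM in itaconate and 58.7, 58.1 and 51.8 CPM in control libraries, which overlapped (log2 fold change -0.05 ± 0.066, adjusted p = 0.710). Of 16 tested genes that write or read methyladenosine, 0 were called in edgeR's test and 0 in DESeq2, with 2 at an unadjusted p under 0.05, and the writer Mettl3 had a log2 fold change of -0.04 (adjusted p = 0.776). The DNA and tRNA enzymes Alkbh1, Alkbh2, Alkbh3 and Alkbh8, and Alkbh4, Alkbh6 and Alkbh7, had log2 fold changes between -0.19 and 0.21 and did not pass.

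**Figure D4:**
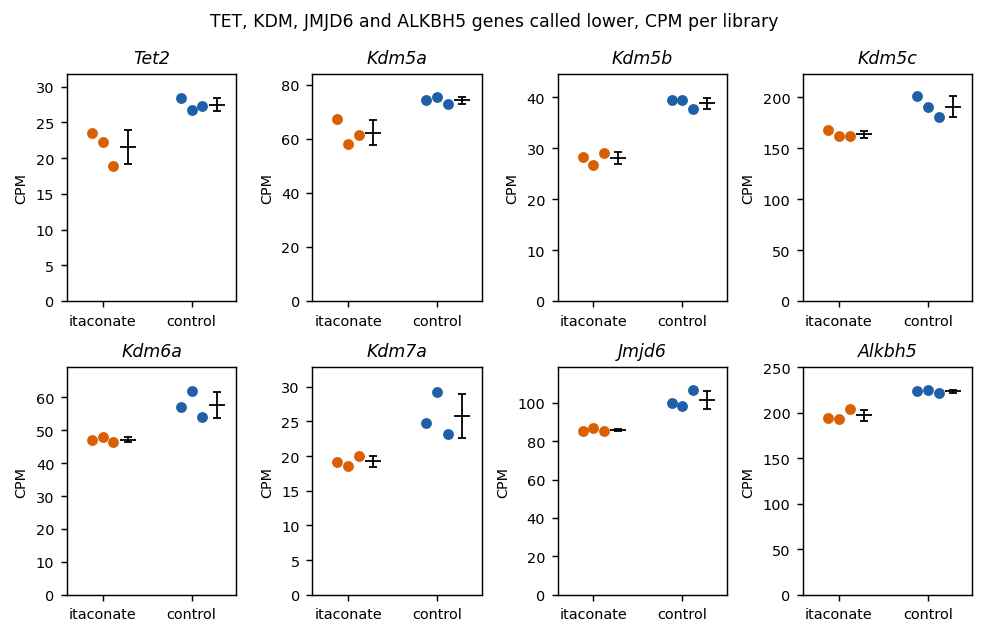
CPM per library of Tet2, Kdm5a, Kdm5b, Kdm5c, Kdm6a, Kdm7a, Jmjd6 and Alkbh5, itaconate (orange) left of control (blue), with the mean and SD of 3 libraries as black marks and each axis starting at 0. In all 8 panels the itaconate libraries lie below the control libraries, for example at 162 to 167 against 181 to 201 CPM in Kdm5c.

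The OGFOD genes Ogfod1, Ogfod2 and Ogfod3 had log2 fold changes of -0.10, 0.03 and 0.02, and 0 of the 3 passed edgeR's test, DESeq2 or an unadjusted p under 0.05. Phyh, which encodes the peroxisomal hydroxylase of phytanoyl-CoA, averaged 8.31 ± 1.0 CPM in itaconate and 6.56 ± 0.80 CPM in control libraries (log2 fold change 0.34 ± 0.14, adjusted p = 0.140). Of 16 further dioxygenase genes outside the 50, 7 were tested and 0 were called in edgeR's test or in DESeq2 (1 at an unadjusted p under 0.05), with a median log2 fold change of 0.13 and 1 of 7 negative.

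**Figure D5:**
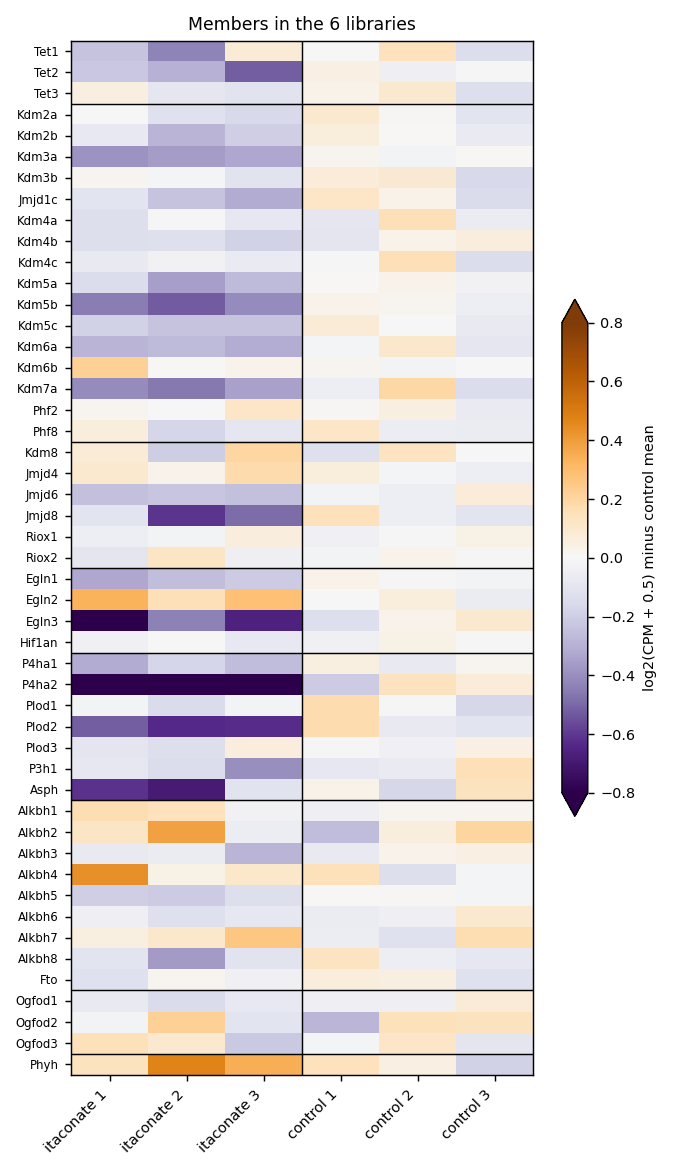
Log2(CPM + 0.5) of the 49 genes in each library minus the mean of the control libraries, itaconate replicates left of control replicates, purple below and orange above the control mean, with colours capped at 0.8 in either direction. P4ha2 is dark in all 3 itaconate libraries, and Egln2 is orange in all 3.

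Genes listed for the co-substrate were more often called higher than lower, without a shift of the list as a whole. Of 20 tested genes of 2-oxoglutarate supply and use, 6 rose and 1 fell, where 6.68% of all tested genes rose and 5.36% fell. The median log2 fold change of the 20 was 0.03, and 8 of their values were negative. Gpt2, the mitochondrial alanine transaminase that forms 2-oxoglutarate from glutamate, rose to 75.6 ± 1.2 CPM in itaconate libraries, against 52.2 ± 2.5 CPM in control libraries (adjusted p = 6.05e-05). Phgdh, the first enzyme of serine synthesis, rose to 935 ± 23 CPM in itaconate libraries, against 766 ± 36 CPM in control libraries (adjusted p = 0.00158). Idh2, the mitochondrial isocitrate dehydrogenase that makes 2-oxoglutarate, rose to 66.0 ± 3.4 CPM in itaconate libraries, against 53.8 ± 1.4 CPM in control libraries (adjusted p = 0.00562), while cytosolic Idh1 did not pass (log2 fold change -0.13, adjusted p = 0.613). Of 11 genes of succinate and fumarate metabolism, Sdhb, the iron-sulfur subunit of succinate dehydrogenase, was the 1 called, at 174 ± 6.2 CPM in itaconate and 146 ± 1.8 CPM in control libraries (log2 fold change 0.25, adjusted p = 0.00339), and Sdha had a log2 fold change of 0.02 (adjusted p = 0.791).

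For iron and ascorbate, which keep these enzymes active, 2 of 13 tested genes rose and 3 fell. Over all tested genes 6.68% rose and 5.36% fell. Tfrc, the transferrin receptor, fell to 489 ± 17 CPM in itaconate libraries, against 756 ± 24 CPM in control libraries (log2 fold change -0.63, adjusted p = 4.3e-06). The ferritin light and heavy chains rose: Ftl1 averaged 1121 ± 35 CPM in itaconate and 882 ± 58 CPM in control libraries (adjusted p = 0.000859), and Fth1 averaged 306 ± 13 CPM in itaconate and 270 ± 6.6 CPM in control libraries (adjusted p = 0.0197). Slc2a1, the glucose and dehydroascorbate carrier GLUT1, fell to 115 ± 12 CPM in itaconate libraries, against 169 ± 3.6 CPM in control libraries (adjusted p = 0.000256). Slc2a3, the carrier GLUT3, was outside the naming rule and also fell, to 74.3 ± 14 CPM in itaconate libraries, against 163 ± 7.0 CPM in control libraries (log2 fold change -1.13, adjusted p = 0.00468).

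Transcript length moved with the direction of change. Members that fell had a median length of 3782 bases, other members 3531 and all tested genes 2356, and their median GC content was 46.6%, 53.8% and 49.95% in that order. Over all genes of at least 4500 bases the median log2 fold change was -0.07 and 11.7% fell, whereas of the 14 members of that length 6 fell, with a median of -0.19. Between 3000 and 4500 bases 6.67% of all genes and 4 of 14 members fell, and between 1500 and 3000 bases 4.34% of all genes and 4 of 14 members fell. Below 1500 bases 2.57% of all genes and 0 of 7 members fell. With each library corrected for smooth trends over length and GC content, a setting added after seeing the data, 15 members fell and 0 rose: Egln2, Kdm7a and Alkbh5 were no longer called, and Kdm2b, Kdm4b and Jmjd8 were called lower. Exons of 22 of the 49 members, and of 5 of the 14 that fell, share bases with another annotated gene.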

How the data were processed

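RNA-seq of 6 libraries, 3 per group by the labels, was used. Per the file headers, whose column names are those of RSEM, the authors deposited per gene an expected count (an estimate of reads, not normalised), an effective length and a TPM value (length-normalised, scaled to a fixed total per library). Bowtie 0.12.2 and the builds mm8 and mm10 are listed, per the submitters' processing notes, with no roles. The sources used here do not give the strand setting, trimming, RSEM version or annotation release. Identifiers were matched to GENCODE M21 on GRCm38 (99.83% found) for positions, exon overlaps and GC content, and promoters came from RefSeq (GRCm38.p6). Between 5.99% and 6.93% of expected counts per library were not whole (tolerance 0.001), and all were rounded.

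Itaconate was tested against control with edgeR 4.0.16 (R 4.3.3), quasi-likelihood test, two-sided, TMM scaling (factors 0.9866 to 1.017), minimum count 10 and minimum total 15, with Benjamini-Hochberg adjustment over 12350 genes and a threshold of 0.05. CPM values use the TMM factors, errors of means are SDs of 3 libraries, and errors of log2 fold changes are standard errors. Alternatives used DESeq2 1.42.0, limma 3.58.1 on log2(TPM + 1) and log2(TPM + 0.1), other filters and scalings, and each library left out. Members and lists were chosen with earlier results of these data known. Genes named were every member, from each list at most 2 that rose and 2 that fell (lowest adjusted p first), and 11 genes fixed by name. Slc2a3 and some cell-type markers were named outside this rule. A gene that this rule takes is not reported here. Shares used an exact permutation test over libraries. The gene test was tested on simulated counts with known changes and a common spread for all genes. It recovered 50% of 1.25-fold, 82% of 1.5-fold and 98% of 4-fold changes, and 5.95% of its calls were unchanged genes. A member that did not pass may therefore still have changed by a small amount. Libraries of a group were checked for repeats: chi-square values per gene were 4.84 to 16.9. By this measure 1 library sequenced again would give about 1, and an identical copy of its counts would give less.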

Additional observations from a re-analysis of the deposited data

How the results depend on the processing

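All 15 called members kept their sign under all 17 alternatives. With DESeq2 size factors, upper-quartile scaling, DESeq2 itself or a filter of 1 CPM in 3 libraries, the same 15 were called, and without a low-count filter these and 3 more. Correcting for effective length left 7 members, 7 lower (Kdm3a, Kdm5b, Jmjd6, Egln1, Egln3, P4ha2 and Plod2) and 0 higher, with 562 genes called in all. Limma on log2(TPM + 1) left 5 members, 5 lower and 0 higher (305 genes in all), and on log2(TPM + 0.1) the same numbers (304 genes). Of genes called on log2(TPM + 1) 37.7% were higher, against 55.5% in edgeR. Without a filter on low values limma called 0 members, 0 lower and 0 higher (59 genes), with 18 members at an unadjusted p under 0.05. The length and GC correction left 0 members higher. Differences between count and TPM results were not traced to a cause.

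Leaving out 1 library gave 8 to 16 members called, 8 to 16 lower and 0 to 1 higher, with 726 to 1400 genes in all (726 without control replicate 2, 835 without itaconate replicate 3 and 896 without itaconate replicate 2). Same-numbered libraries of the groups deviated together with correlations of 0.154, 0.0398 and 0.0308, and libraries of unlike number with -0.139 to 0.102. The labels do not say whether the numbers mark pairs, these values do not settle it, and the main test did not pair the libraries. With the replicate number as a block, 2419 genes and 18 members were called, 17 lower and 1 higher.

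Low depth limits P4ha2, Tet1 and Asph most, with 18 to 168 counts in P4ha2. Small decreases rest on 3 libraries per group.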
